A study of Mus musculus with 9 samples.

Results

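Small nucleolar RNAs (snoRNAs) encoded outside chromosome 7 were followed through 3 zones of the mouse left ventricle after ischemia and reperfusion. The members are the transcript clusters (probe sets for 1 transcript region) whose identifier does not begin with the code of chromosome 7 and whose only gene symbol has the biotype snoRNA in the RefSeq mouse gene table. They number 748 of the 65534 clusters on the array, carry 746 symbols and lie on 19 chromosomes, with 12 members on chromosome 19 and 54 each on chromosomes 2 and 4. By name, 38 are Snord clusters (box C/D), 15 are Snora clusters (box H/ACA) and 695 are predicted snoRNA genes, whose symbols begin with Gm, AF or DQ and do not give a box class. Membership used no measured value. A further 205 snoRNA clusters have chromosome 7 identifiers and are not members.

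The tissue came from 3 male C57BL/6J mice (C57BL/6 in the strain label) aged 8 weeks, with no transgene or deletion. The left anterior descending coronary artery was closed for 45 min and the heart was taken after 24 h of reperfusion. The left ventricle was divided into the ischemic zone (IZ), the border zone (BZ) and the non-ischemic zone (NIZ), with 3 arrays of each. All 9 samples therefore come from operated hearts, and NIZ is remote muscle of an injured heart, not sham tissue. The labels give heart as the source, while the field that holds the zone is headed brain. On the arrays the 10 cardiomyocyte markers had mean levels (log2) of 8.75 to 13.82, and the 8 measured neuronal and glial markers had mean levels of 3.93 to 7.16 with a median of 4.93, the highest being that of Stmn2. A zone is bulk tissue, in which fewer cells of a type and less RNA per cell cannot be told apart.

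SnoRNAs are short nucleolar RNAs that guide the chemical modification of other RNAs, above all ribosomal RNA. Box C/D snoRNAs sit in a particle with the methyltransferase fibrillarin (Fbl) and guide 2′-O-methylation, and box H/ACA snoRNAs sit in a particle with the pseudouridine synthase dyskerin (Dkc1) and guide pseudouridylation. A few, such as U3, U8, U13 and U17, are known for the cutting and folding of the ribosomal RNA precursor. In mammals most are cut from introns of a host gene, and many hosts encode ribosomal proteins, translation factors or nucleolar proteins, so that 1 promoter serves the messenger RNA and the snoRNA.

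Because several members share a host, the starts of 4 genes that span members described below are shown, each from 80 bases before the annotated start to 20 bases from it, read 5′ to 3′ on the gene's strand from RefSeq (GRCm38.p6). Capitals mark the letters CTTTC or CTTTT on the printed strand, pyrimidine runs of the kind known at the starts of ribosomal protein genes.
Ncl (nucleolin; chr1:86359436-86359535, minus strand): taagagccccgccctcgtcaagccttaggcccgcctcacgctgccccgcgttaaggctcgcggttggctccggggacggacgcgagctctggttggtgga
Tpt1 (a growth-related protein; chr14:75845176-75845275, plus strand): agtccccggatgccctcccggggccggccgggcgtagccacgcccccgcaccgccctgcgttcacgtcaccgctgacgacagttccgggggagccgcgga
Rpl4 (a large-subunit ribosomal protein; chr9:64173307-64173406, plus strand): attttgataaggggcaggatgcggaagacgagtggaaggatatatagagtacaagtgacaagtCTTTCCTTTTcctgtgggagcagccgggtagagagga
Nop58 (a core protein of box C/D particles; chr1:59684926-59685025, plus strand): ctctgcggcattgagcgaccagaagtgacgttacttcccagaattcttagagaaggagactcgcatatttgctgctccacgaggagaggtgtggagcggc
Of these 4, only Rpl4 holds either motif in the printed stretch. Within 40 bases on either side of the start, 1 of the motifs was on the gene's strand in 12 of 39 genes that span Snord or Snora members and have a sequence (30.8%), in 56 of 231 that span predicted members (24.2%) and in 5433 of all 27025 genes (20.1%). On either strand the shares were 35.9%, 33.3% and 35.8%. The match is a description of letters only.

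The values are log2 levels as deposited, with array medians between 4.19 and 4.29. Across all 65534 clusters limma called none in any zone pair at an adjusted p of 0.05 (0%), with an unadjusted p under 0.05 for 2597 clusters in IZ and 3457 in BZ, each against NIZ, and for 2517 between IZ and BZ. Without the NIZ 3 array, limma called 216 clusters for IZ and 173 for BZ, each set against NIZ, and 0 of them were members. The BZ 3 array had the highest median, and the 5897 clusters with a mean of 8 or more had a median deviation there of -0.08, against -0.01 to 0.03 on the other 8 arrays. Neutrophil markers differed within zones more than between them: the mean level of the 10 markers was 7.81, 7.83 and 8.52 in IZ, 9.58, 8.28 and 6.59 in BZ, and 9.46, 8.24 and 6.21 in NIZ. All 10 monocyte and macrophage markers had higher means in IZ and in BZ than in NIZ, with median differences of 0.48 and 0.50. Of 8 measured lymphocyte markers 7 were higher and 1 lower in each, with medians of 0.26 and 0.22. Limma called 0 of these markers, and their part in the snoRNA values was not tested.

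The named box C/D and box H/ACA clusters were mostly well above the middle of the array, and the predicted ones were not. The median of the 9-array means was 8.21 over the 38 Snord clusters, 7.67 over the 15 Snora clusters and 3.72 over the 695 predicted clusters, against 4.22 over all clusters. Above the array's own median on all 9 arrays were 32 Snord clusters (84.2%), 13 Snora clusters (86.7%) and 249 predicted clusters (35.8%), against 46.6% of all clusters. Levels of different clusters rest on different probes, so that neither the medians nor the shares are amounts of RNA. A level below the array median does not by itself mean that a cluster gives no signal.

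**Figure D1:**
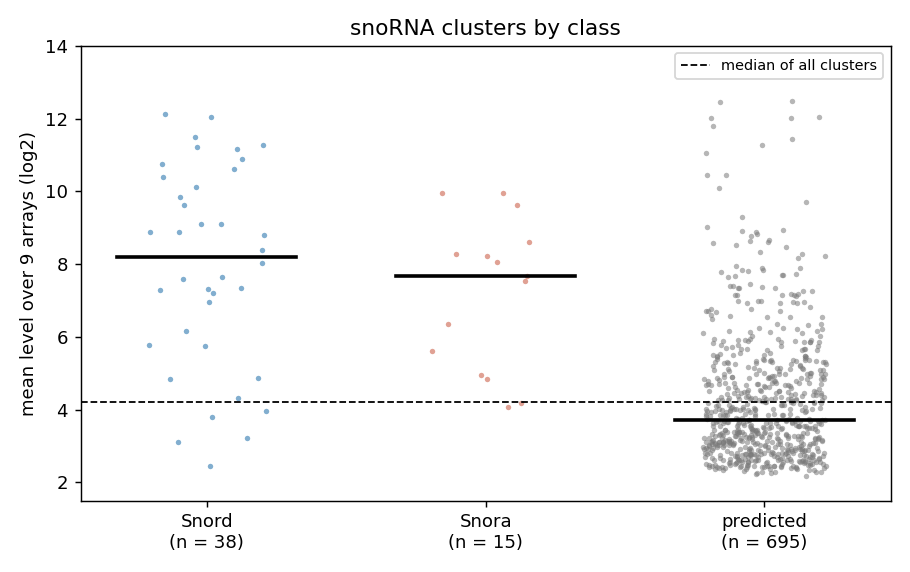
Mean level over 9 arrays (log2, vertical axis) of each of the 748 members by class; black bars are class medians and the dashed line is the median of all 65534 clusters (4.22). Snord and Snora medians stand at 8.21 and 7.67, and the predicted median, 3.72, is below the line.

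The position of a predicted member went with its level. Of the 695 predicted members, 301 lie within the span of another annotated gene and had a median level of 4.26, while 394 lie outside any gene and had a median of 3.54. Among predicted members of at most 100 bases the medians were 4.73 for the 36 inside a gene and 3.15 for the 15 outside, and among longer ones 4.16 (265 members) and 3.55 (379 members). All 15 Snora clusters and 33 of 38 Snord clusters lie inside a gene. The strand was not available, so a spanning gene need not be the host.

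Among the brightest Snord clusters were Snord69 (12.14), within Gnl3, which encodes the nucleolar protein nucleostemin, Snord61 (11.49), within the RNA-binding protein gene Rbmx, Snord104 (11.28) and Snord110 (11.22), within Nop56, which encodes a core protein of the same particle. Their SDs over the 9 arrays were 0.10, 0.20, 0.19 and 0.14. Snord69 read 12.10, 12.21 and 12.01 in IZ, 12.12, 12.31 and 12.11 in BZ, and 12.07, 12.26 and 12.09 in NIZ. The zones overlapped completely for this cluster. Among the brightest Snora clusters were Snora47 (9.96, within Zbed3), Snora16a (9.95, within the noncoding host Snhg12), Snora21 (9.62, within Rpl23) and Snora73b (8.61, within the noncoding host Snhg3).

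A mean level of 12 was reached by 7 members, and 5 of them are predicted. Gm24130 (12.50, outside any gene) and Gm26202 (12.45, within Rpl17) led. Gm24879 (12.06, within Dlg1), Gm24727 (12.03, within Gsr) and Gm23123 (12.02, within Fam234a) share a RefSeq length of 144 bases. The 19 members of that length ranged between 3.29 and 12.06, with a median of 7.15, and the 133 members of 132 bases had a median of 3.51. These predicted members were named after their values were seen.

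Snord clusters had the higher median level on 9 of 9 arrays, and the gap between the classes did not order the zones. The same probes are read on each array, so the 9 arrays do not test the order of the classes separately. The difference of the class medians, Snord minus Snora, was 0.61, 0.58 and 0.40 in IZ, 0.49, 0.49 and 0.64 in BZ, and 0.04, 0.48 and 0.65 in NIZ. On NIZ 1, where the gap was small, the Snora median was 8.14, against 7.45 to 7.88 on the other arrays. With 15 Snora clusters the class median is the level of 1 cluster.

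Relative to each cluster's own 9-array mean, both named classes were below 0 on IZ 1 and BZ 3. Both were above 0 on IZ 2, BZ 2, NIZ 1 and NIZ 2, and on the other arrays the classes had opposite signs. The median deviation of Snord clusters was -0.07, 0.04 and 0.01 in IZ, -0.07, 0.06 and -0.19 in BZ, and 0.03, 0.17 and 0.01 in NIZ. That of Snora clusters was -0.13, 0.03 and -0.01 in IZ, 0.01, 0.04 and -0.18 in BZ, and 0.09, 0.08 and -0.02 in NIZ. Snord minus Snora stayed between -0.08 and 0.09 on every array, and the sign of that gap varied within each of BZ and NIZ. The predicted members stayed between -0.04 and 0.02.

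**Figure D2:**
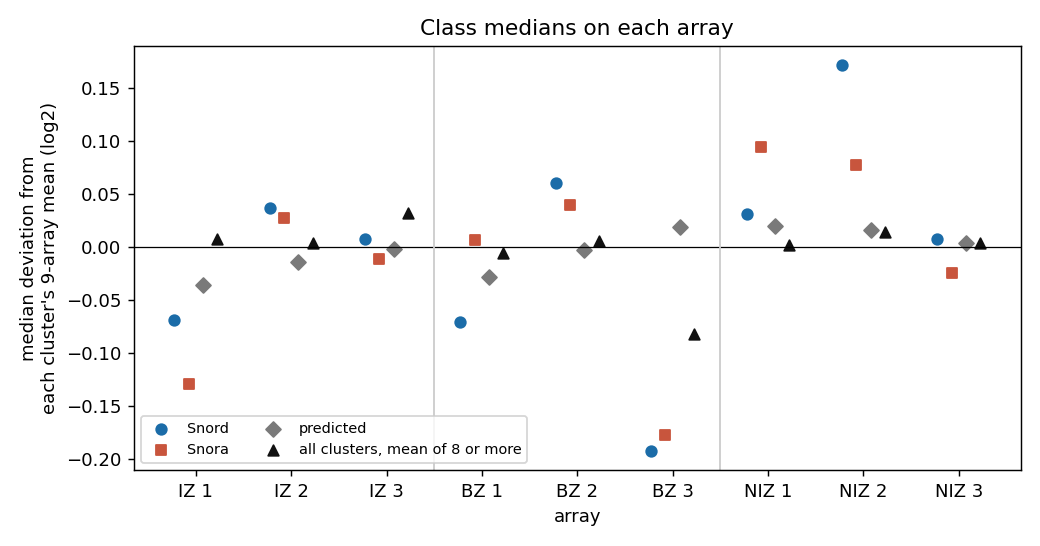
Median deviation (log2) of each class from its clusters' 9-array means, by array, with the 5897 bright clusters of all kinds as triangles; vertical lines part IZ, BZ and NIZ. Snord and Snora are lowest on BZ 3 (-0.19 and -0.18), where the bright clusters are at -0.08.

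No member was called in any zone pair. By limma, the smallest adjusted p over the members was 0.999 for IZ over NIZ, 0.854 for BZ over NIZ and 0.943 for IZ over BZ. At an unadjusted p under 0.05 limma put 34 members lower and 2 higher in IZ than in NIZ, where 2.72% and 1.24% of all clusters were lower and higher. In BZ against NIZ 48 members were lower and 9 higher, against 3.09% and 2.19% of all clusters. In IZ against BZ 21 were lower and 13 higher, against 2.58% and 1.26% of all clusters. After each array was centred on its median, the split in IZ against NIZ was 15 lower and 5 higher, where 1.46% and 1.95% of all clusters were lower and higher, and in IZ against BZ 10 lower and 18 higher, where 1.48% and 2.44% were.

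The zone means of named snoRNAs leaned to lower values in the injured zones, by small amounts. In IZ the mean was below that of NIZ for 36 of 38 Snord clusters, 13 of 15 Snora clusters and 511 of 695 predicted clusters, where 58.5% of all clusters were lower. The median differences, IZ minus NIZ, were -0.09, -0.10 and -0.05, against -0.01 over all clusters. In BZ the mean was below that of NIZ for 32 Snord, 12 Snora and 420 predicted clusters, where 47.7% of all clusters were lower, with median differences, BZ minus NIZ, of -0.17, -0.14 and -0.03, against 0.00 over all clusters. All clusters are a dimmer set than the named classes. Clusters with a mean of 8 or more had median deviations of 0.0074, 0.0031 and 0.0319 in IZ. In BZ theirs were -0.0058, 0.005 and -0.0825, and in NIZ 0.0018, 0.0136 and 0.0033. No zone difference was taken for clusters of like level. After centring, 33 Snord, 13 Snora and 441 predicted clusters were lower in IZ, and 33, 12 and 444 in BZ; with quantile normalization 27 Snord clusters were lower in BZ. Both comparisons use the same NIZ arrays. Between arrays of the same number, the class median deviations given above differed, BZ minus NIZ, by -0.10, -0.11 and -0.20 for Snord and by -0.09, -0.04 and -0.15 for Snora clusters. The same differences, IZ minus NIZ, were -0.10, -0.14 and -0.00 for Snord and -0.22, -0.05 and 0.01 for Snora clusters. All were below 0 in BZ, and in IZ those of array 3 were near 0. No label ties an array number to a mouse, so arrays of the same number need not be pairs. The largest BZ difference of each class was that of array 3, where clusters with a mean of 8 or more deviated by -0.0825. The pooled SD within zones of these array median deviations was 0.09 for each named class, and no test was made over a class. With arrays left out, the Snord median in IZ against NIZ lay between -0.17 (without both arrays numbered 3) and -0.05 (without NIZ 2), and the Snora median between -0.16 (without NIZ 3) and -0.03 (without both arrays numbered 1). In BZ against NIZ the Snord median lay between -0.19 (without NIZ 3) and -0.12 (without NIZ 1), and the Snora median between -0.17 (without both arrays numbered 2) and -0.04 (without BZ 3). Median differences between IZ and BZ were 0.01 for Snord, -0.00 for Snora and -0.02 for predicted clusters, and after centring they were 0.05, 0.03 and 0.01.

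Clusters whose arrays did not overlap between zones were more often lower than higher, in values as deposited. In IZ all 3 arrays were below all 3 NIZ arrays for 4 Snord, 3 Snora and 55 predicted clusters (8.29% of the members), where 4.55% of all clusters were lower without overlap; 5 predicted clusters were higher, where 1.78% of all clusters were. After centring these counts were 25 lower and 24 higher, with 0 Snord and 1 Snora cluster lower, against 2.32% and 13% of all clusters. In BZ against NIZ, 6 Snord, 1 Snora and 45 predicted clusters were lower and 7 predicted clusters higher, where 3.72% and 2.51% of all clusters were; after centring 54 members were lower and 29 higher, 5 Snord clusters among the lower, against 3.89% and 7.19% of all clusters. In IZ against BZ, 21 members were lower and 13 higher, where 3.53% and 2.24% of all clusters were, and the counts after centring were 23 and 46, against 2.58% and 6.17% of all clusters. A pair of zones with 3 arrays each cannot reach an exact permutation p below 0.1, and none of these counts is a call.

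**Figure D3:**
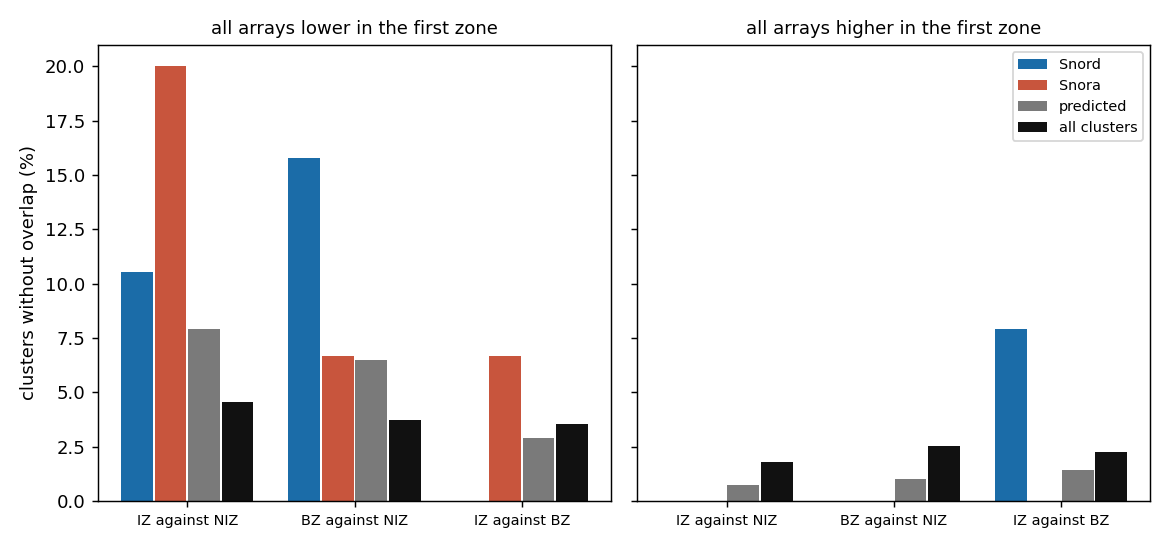
Share of clusters (percent, bars from 0) whose 3 arrays in the zone named first were all below (left) or all above (right) the 3 arrays of the zone named second, in values as deposited. Black bars give all 65534 clusters, for which 4.55% were lower and 1.78% higher in IZ against NIZ; the Snora bars rest on 15 clusters and the Snord bars on 38.

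Snord91a was the only Snord or Snora cluster that lay below NIZ without overlap in both injured zones. It lies in the span of Srr and Tsr1, the second of which encodes a ribosome assembly factor. It read 3.76, 4.13 and 3.91 in IZ, 3.95, 3.78 and 3.67 in BZ, and 4.22, 4.18 and 4.14 in NIZ. The differences were -0.25 in IZ and -0.38 in BZ (limma SE 0.10, adjusted p 0.999 and 0.854). The level is below the array median. Counting all classes, 17 members (2.27%) were lower than NIZ without overlap in both zones, where 1.25% of all clusters were, and 1 (0.134%), Gm25588, was higher in both, where 0.667% of all clusters were. After centring 10 members were lower in both and 1 was higher, against 0.751% and 2.54% of all clusters. Both zones are set against the same 3 NIZ arrays. Gm23442, within Prrc2a, had the highest level of the 17 (a mean of 7.84), and read 7.64, 7.74 and 7.83 in IZ, 7.74, 7.87 and 7.76 in BZ, and 8.03, 8.04 and 7.88 in NIZ.

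The larger differences that kept the IZ and NIZ arrays apart were those of Snora31 and Snord45b. Snora31, a box H/ACA guide within Tpt1, read 7.45, 7.45 and 7.24 in IZ, 7.60, 7.42 and 6.94 in BZ, and 8.61, 7.55 and 7.51 in NIZ. NIZ 1 stood 1 log2 unit above every other array. The difference was -0.51 in IZ and -0.57 in BZ (limma SE 0.30, adjusted p 0.999 and 0.854). Snord45b, a box C/D snoRNA within Rabggtb, read 5.86, 5.56 and 5.86 in IZ, 6.25, 5.19 and 5.12 in BZ, and 6.16, 6.22 and 5.88 in NIZ. The highest IZ array and the lowest NIZ array, at 5.86 and 5.88, nearly met, and BZ overlapped both zones. Gm25830 (-0.28) and Gm22659 (-0.25) followed among predicted members. Those higher in IZ than in NIZ were Gm25244 (0.22), Gm25588 (0.21), Gm22673 (0.18), Gm25480 (0.13) and Gm23749 (0.12), all with levels between 2.76 and 4.70.

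In BZ the named members below NIZ without overlap included Snord70, Snord42a and Snord58b. Snord42a, within the ribosomal protein gene Rpl23a, read 10.50, 10.44 and 10.33 in BZ, against 10.59, 10.82 and 10.67 in NIZ. Its 3 IZ arrays (10.63, 10.76 and 10.71) lay among those of NIZ and above those of BZ. The difference of BZ from NIZ was -0.27 (limma SE 0.07, adjusted p 0.854), and that of IZ from BZ 0.28. Snord70, within Nop58, had the same order: 7.30, 7.30 and 7.70 in IZ, 7.14, 7.25 and 6.89 in BZ, and 7.27, 7.81 and 7.30 in NIZ. Snord58b is measured by a cluster on chromosome 18 within Rpl17 and another on chromosome 14, which differed by 0.01 to 0.02 on each array and are not independent; both were lower in BZ than in NIZ (-0.36 and -0.37). On the array BZ 3 these members were at their lowest.

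DQ267102, a snoRNA within the imprinted noncoding host Rian, was higher in BZ without overlap, at 5.28, 5.24 and 5.41, against 5.15, 5.02 and 5.10 in NIZ (difference 0.22). The other members within Rian did not separate: Gm24564 differed by 0.17 and AF357426 by 0.00. Gm22501 (0.31), Gm22159 (0.27), Gm24170 (0.26) and Gm22429 (0.15) were, among members without overlap, the other predicted ones highest over NIZ in BZ. Of these 4, Gm22501, Gm22159 and Gm24170 were also among the 5 without overlap furthest below BZ in IZ. Gm22517 (-0.26) and Gm23274 (-0.24) were the others of that 5. Both comparisons use the same 3 BZ arrays, so a member high there is apt to appear in both. Gm22501, Gm22159 and Gm24170 were below the array median on every array. Gm23987 (0.22) and Gm23613 (0.20) were higher in IZ than in BZ.

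The members that varied most did so within zones more than between them. Gm22303 (within the span of Rock2), Gm22358 (BC005537) and Gm25188 (Sh3d19) are predicted snoRNAs of 122 bases on chromosomes 12, 13 and 3, with SDs over the 9 arrays of 0.75, 0.74 and 0.65, against a median of 0.11 over the members. Gm22303 read 8.99, 8.36 and 8.16 in IZ, 9.40, 8.46 and 7.70 in BZ, and 9.93, 9.13 and 7.86 in NIZ. Gm25188 read 7.16, 6.43 and 6.42 in IZ, 7.35, 6.53 and 5.86 in BZ, and 7.74, 7.32 and 6.04 in NIZ. In each zone the array numbered 1 was the highest, and the order of the zones differed with the number. Gm22303 and Gm22358 were 0.05 to 0.21 apart on each array. The neutrophil marker mean given above was likewise highest on array 1 and lowest on array 3 in BZ and NIZ, but in IZ it was highest on array 3. The 14 genes of ribosomal RNA synthesis and processing described below had their highest mean on array 1 in each zone. Their mean deviations were 0.07, -0.04 and -0.04 in IZ, 0.21, -0.05 and -0.21 in BZ, and 0.25, -0.01 and -0.16 in NIZ. The 10 cardiomyocyte markers had their lowest mean on array 1 in each zone. The part of these lists in the values of the trio was not tested. The trio was chosen after its values were seen.

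Snora75, a box H/ACA snoRNA within Ncl, had the largest zone difference of any member and an SD of 0.70. It read 5.27, 5.42 and 5.13 in IZ, 6.09, 5.30 and 4.88 in BZ, and 6.93, 6.44 and 5.17 in NIZ. NIZ 1 and NIZ 2 were above all 6 arrays of the injured zones, and NIZ 3 lay among them. The difference from NIZ was -0.91 in IZ and -0.76 in BZ (limma SE 0.47, adjusted p 0.999 and 0.854). NIZ 3 was the lowest NIZ array for this cluster, so leaving it out could only widen the difference. Without NIZ 3 the difference was -1.41 and -1.26 (adjusted p 0.284 and 0.402 by limma). Snord43, within Rpl3, had the same shape, with 7.28, 6.96 and 7.39 in IZ, 7.43, 7.18 and 6.92 in BZ, and 7.99, 7.79 and 7.13 in NIZ. Its differences of -0.42 and -0.46 became -0.68 and -0.71 without NIZ 3, again the lowest NIZ array (adjusted p 0.340 and 0.354 by limma).

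**Figure D4:**
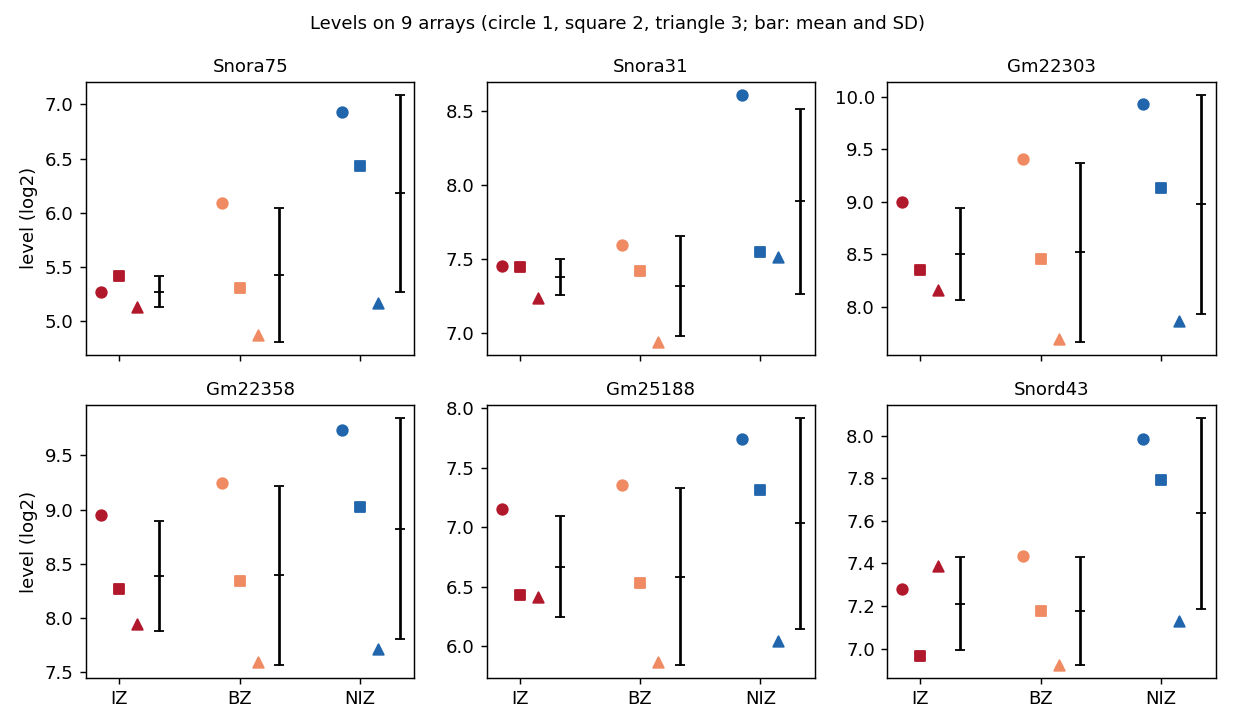
Levels (log2, vertical axes with their own ranges) of 6 members on the 9 arrays by zone; circle, square and triangle are arrays 1, 2 and 3, and the black bar is the zone mean with its SD. Snora75 reads 6.93 and 6.44 on NIZ 1 and NIZ 2 and 5.17 on NIZ 3, and the 122-base members Gm22303, Gm22358 and Gm25188 are highest on array 1 in each zone.

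The NIZ 3 array is also the one on which the snoRNA clusters of chromosome 7 parted from the other NIZ arrays. Outside chromosome 7 the median deviation of the members in NIZ was 0.02, 0.02 and 0.00. That of the chromosome 7 clusters was -0.27, -0.30 and -0.59 in IZ, -0.19, -0.23 and -0.45 in BZ, and 1.09, 1.65 and -0.55 in NIZ. The median difference from NIZ over the 748 members was -0.05 in IZ and -0.03 in BZ, against -1.14 and -1.01 over the 205 chromosome 7 clusters.

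The 4 clusters of snoRNAs known for processing of the ribosomal RNA precursor had lower means than NIZ in both injured zones, and none was called by limma. Most named clusters did too: of the 53 Snord and Snora clusters, 49 were lower in IZ and 44 in BZ. Snord118 (U8) on chromosome 11 read 5.71, 5.77 and 5.17 in IZ, 6.15, 5.79 and 5.31 in BZ, and 6.33, 6.09 and 5.54 in NIZ, with array 3 the lowest in every zone, a difference of -0.44 in IZ and -0.24 in BZ. A second cluster with that symbol, on chromosome 19 where RefSeq does not place the gene, averaged 2.45 against 5.76 for the first and differed by -0.11 and -0.17. Snord13 (U13) differed from NIZ by -0.08 in IZ and -0.18 in BZ, and Snora73b (a U17 gene) by -0.15 and -0.05.

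Members that lie in 1 gene had unlike differences in some genes and like ones in others. In all, 26 genes span more than 1 member, 58 members together and at most 4 in a gene; those described here were chosen after their values were seen. Within Pabpc4, Gm25788 and Gm22154 both averaged 10.45 and differed from NIZ by -0.15 and -0.13 in IZ and by -0.16 and -0.10 in BZ. Within Rpsa, Gm26448 (7.36) and Snora62 (7.67) differed by -0.09 and -0.10 in IZ and by -0.03 and -0.07 in BZ. Within Ncl, Snord82 averaged 9.64 and Snora75 5.63, and Snord82 differed from NIZ by -0.11 in IZ and -0.30 in BZ, against -0.91 and -0.76 for Snora75. The Ncl messenger RNA, which encodes the nucleolar protein nucleolin, differed by -0.06 and -0.17. Within Rpl3, Snord83b differed by -0.08 and 0.02 beside -0.42 and -0.46 for Snord43. Within Rabggtb, Gm24494 differed by -0.03 and -0.05 beside -0.33 and -0.57 for Snord45b. Within Rpl4, Gm22571 read 4.21, 4.05 and 3.84 in IZ, 4.09, 3.70 and 3.74 in BZ, and 4.81, 4.08 and 4.56 in NIZ, a difference of -0.45 and -0.64, while Snord16a (10.75) differed by -0.05 and -0.02. The difference of the more variable member lay within 2 limma standard errors of 0 in both zones for Snora75, Snord43 and Snord45b and beyond them for Gm22571, and the differences between members were not tested.

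**Figure D5:**
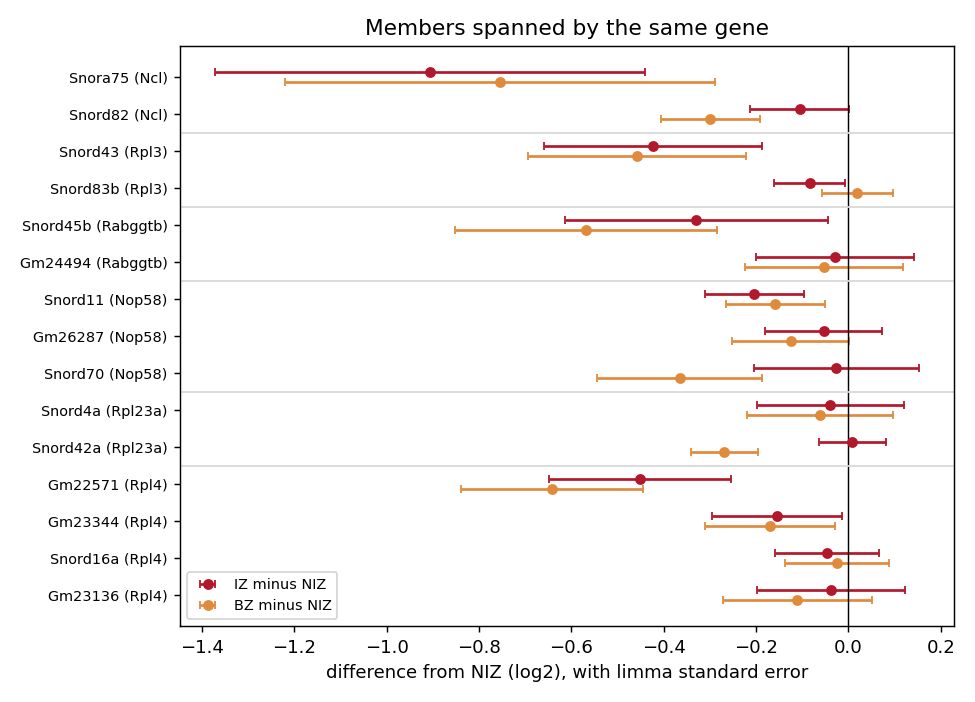
Difference from NIZ (log2, horizontal axis) of members grouped by the gene that spans them, IZ minus NIZ above BZ minus NIZ in each row, with limma standard errors. Snora75 is at -0.91 and -0.76 and its neighbour Snord82, in the same gene, at -0.11 and -0.30.

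Host messages had median differences near zero where the members leaned low. Of 42 Snord and Snora clusters spanned by 1 gene, 22 had a gene with a cluster of its own. For these 22 the median difference of the members was -0.10 in IZ and -0.16 in BZ, and that of their 20 spanning genes 0.02 and 0.00. Of the members 20 were lower in IZ and 20 in BZ; of the genes 9 were lower in each. Some members and genes differed in opposite directions and others in the same one. Snora62, within Rpsa, differed by -0.10 and -0.07 beside 0.14 and 0.23 for Rpsa. Snord123, within the noncoding host Snhg18, differed by -0.10 and -0.09 beside 0.36 and 0.30 for Snhg18. Snord11, within Nop58, differed by -0.20 and -0.16 beside -0.19 and -0.20 for Nop58. These pairs were chosen after their values were seen. For 227 of the 295 predicted members spanned by 1 gene the medians were -0.05 and -0.04, beside 0.00 and 0.01 for 216 spanning genes. Host clusters with several symbols, such as that of Gas5, were not used.

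The transcripts that encode proteins of the snoRNA particles were not called either. In the box C/D core 2 of 4 genes had a cluster of their own: Fbl differed from NIZ by -0.01 in IZ and 0.11 in BZ, and Nop58 by -0.19 and -0.20. Nop58 read 8.93, 8.52 and 8.69 in IZ, 9.24, 8.69 and 8.15 in BZ, and 9.71, 8.69 and 8.30 in NIZ, highest on array 1 in each zone. All 4 genes of the box H/ACA core (Dkc1, Gar1, Nhp2 and Nop10) had lower means in IZ, with a median of -0.07, and 3 of 4 in BZ, with a median of -0.07. Median differences in IZ and BZ were 0.00 and 0.02 over 12 measured assembly and transport genes, -0.03 and -0.05 over 10 genes of intronic snoRNA processing, and -0.05 and -0.05 over 14 genes of ribosomal RNA synthesis and processing. Of 24 listed noncoding hosts 7 were measured, with medians of -0.03 and 0.03. In each of these lists limma called 0 genes in each zone pair, and 1 gene in all, Snhg9, had an unadjusted p under 0.05 (IZ against BZ).

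Other small RNA clusters gave a scale for these shifts. In values as deposited, 8.29% of the snoRNA members were lower than NIZ without overlap in IZ and 6.95% in BZ. The shares over all clusters were 4.55% and 3.72%. After centring, the members' shares were 3.34% and 7.22%, against 2.32% and 3.89% of all clusters. Centred shares were not taken for the other small RNA families, which are given as deposited. The 605 microRNA clusters had a median difference from NIZ of -0.03 in IZ and 0.00 in BZ, and 4.79% and 4.30% of them were lower than NIZ without overlap. The 915 snRNA clusters, which include copies of the spliceosomal RNAs, had medians of -0.09 and -0.12, with 8.09% and 21.2% lower without overlap. The snRNA clusters also had their lowest median deviation on BZ 3 (-0.11) and their highest on NIZ 1 (0.13).

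Clusters with shared values bound what the counts can say: 14 members have all 9 values in common with another member, among them Gm22192 and Gm25632 within Prrc2b, which leaves 741 distinct profiles.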

How the data were processed

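Total RNA (100 ng) of each zone was labelled for Affymetrix GeneChip mouse transcriptome arrays. The deposited values are on a log2 scale, summarised by the authors with RMA (the submitters' processing notes list Expression Console 1.0 and Transcriptome Analysis Console 3.0), and the genome build is not given in the sources used here. RMA brings the arrays towards a common distribution, so a true shift of most clusters may not be seen. The deposited values still differed between arrays, with medians between 4.19 and 4.29. The values were used as they stand, without a filter; array number limits the precision.

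Symbols came from the platform's annotation (30414 clusters with 1 symbol, 2146 with several, 32974 with none), and biotypes, lengths and spanning genes from RefSeq (GRCm38.p6); 746 members lie on the RefSeq chromosome of their symbol. A gene other than a member is given by its brightest cluster.

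Zones were compared with limma 3.58.1 in R 4.3.3 on all 65534 clusters and 9 arrays, with Benjamini-Hochberg adjustment over all clusters, and the fit was tested on simulated data. Single clusters also had exact two-sided permutation tests, whose smallest p is 0.1. Deviations of same-numbered BZ and NIZ arrays correlated (0.62, 0.20 and 0.52), those of IZ and NIZ less (0.36, 0.08 and 0.25); no label ties a number to a mouse, and p-values treat the arrays as separate samples. The 5 members highest and lowest without overlap in each pair, the 5 brightest and 5 most variable Snord and Snora, and the processing snoRNAs were named by rule; others were named after their values were seen. A few members that the rule names are not reported here. Members and lists were chosen with earlier results of these data known. Alternatives were a replicate block, quantile normalization, centring of each array, leaving out dim clusters, clusters with 1 symbol, trended variance, 2 zones only, the methods' test, distinct profiles and leaving out arrays.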

Additional observations from a re-analysis of the deposited data

Results flagged for a closer look

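Gm22501, a predicted snoRNA of chromosome 2 within the span of D430041D05Rik, lay on opposite sides of NIZ in the injured zones. It read 2.96, 3.12 and 3.06 in IZ, 3.49, 3.49 and 3.62 in BZ, and 3.30, 3.21 and 3.16 in NIZ, so that every IZ array was below and every BZ array above every NIZ array. The difference from NIZ was -0.18 in IZ and 0.31 in BZ. The difference between these, IZ minus BZ, was -0.49 and was not called (limma adjusted p 0.943; exact permutation p 0.1, the smallest that 3 arrays against 3 allow). Such a pattern was found in 1 of 748 members and in 36 of all 65534 clusters (0.0549%), and the level is below the array median.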

How the results depend on the processing

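The count of members called was 0 in each zone pair under all 21 alternatives, the replicate block among them; with that block limma's smallest adjusted p over the members was 0.807 in IZ against NIZ, 0.669 in BZ against NIZ and 0.841 in IZ against BZ. The lowest adjusted p under any alternative was 0.102, 0.0921 and 0.413 in these pairs, the lowest in IZ and BZ against NIZ without the NIZ 3 array. The median difference in IZ against NIZ was -0.0295 (all members) and -0.0263 (predicted) with centring and -0.0327 and -0.0293 with quantile normalization. In IZ against BZ it was 0.0146 and 0.0117 with centring and 0.0007 and 0.0006 with quantile normalization. Leaving out arrays gave medians between -0.0737 and -0.0281 (all) and between -0.0711 and -0.0259 (predicted) in IZ against NIZ. In BZ against NIZ they lay between -0.0622 and -0.0056 (all), -0.0586 and 0.00 (predicted), and -0.17 and -0.0412 (Snora), the last without the BZ 3 array. In IZ against BZ they lay between -0.0355 and 0.0002 (all), -0.0383 and 0.0017 (predicted), and -0.11 and 0.0662 (Snora). Centring, an alternative chosen for this count after seeing the data, gave 25 members lower and 24 higher without overlap in IZ against NIZ, 29 higher in BZ against NIZ and 46 higher in IZ against BZ, where the deposited values gave 62, 5, 7 and 13. Over all clusters centring gave shares of 2.32%, 13%, 7.19% and 6.17%, where the deposited values gave 4.55%, 1.78%, 2.51% and 2.24%. The cause of these changes was not tested. Signal over background was not in the table, and many predicted members lie where a difference may be too dim to see.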
